A study of Mus musculus with 8 samples.

Results

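The nuclear-encoded genes of the mitochondrial respiratory chain were followed across 8 RNA sequencing libraries of mouse splenic regulatory T cells (Tregs), CD4 T cells that express Foxp3 and restrain other immune cells. Members were the protein-coding genes whose symbols carry the family names of the chain: Nduf with a, b, c, s or v and a number (complex I), Sdha to Sdhd (complex II), Uqcr (complex III), Cox4 to Cox8 (complex IV) and Atp5 (complex V). The choice used no measured value. It gave 87 of the 55487 genes listed: 38 of complex I, 4 of complex II, 8 of complex III, 19 of complex IV and 18 of complex V. They carry 86 symbols, since Atp5o is listed under 2 identifiers.

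The study asked how Tregs labelled SRC-3KO differ from control Tregs. Ncoa3 encodes SRC-3, which nuclear receptors use to activate transcription. All mice were C57BL/6, and the Tregs were described as sorted by GFP from spleen. Libraries were made with SMART-Seq v4, which amplifies whole cDNAs from small RNA inputs. Each of 4 groups had 2 libraries: SRC-3KO and control Tregs of mice that bore no tumor, and SRC-3KO and control Tregs of tumor-bearing mice. Both tumor controls and no-tumor control 2 are named for Foxp3-Cre, which drives the recombinase in Foxp3-expressing cells, whereas no-tumor control 1 is named WT and its source label leaves out GFP. Whether no-tumor control 1 was sorted like the others, and is the same kind of control, could not be worked out. The titles of the no-tumor SRC-3KO libraries include Tam1, a term the labels do not explain. Whatever Tam1 marks cannot be told apart from the genotype in these libraries. The tumor, the ages, the deleted exons and whether replicates were separate animals are not stated in the labels, so p-values measure only how these samples spread, which may be technical.

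Raw counts were used for the no-tumor libraries, with 24159217 to 31075452 counts per library. The tumor libraries were read as FPKM (fragments scaled by transcript length and library size), whose sequencing depth is unknown. No library is in both tables, and the tables were not tested against each other. Without a tumor, Ncoa3 in CPM, a count relative to its library's total, was 39.6 and 26.7 for SRC-3KO libraries and 132 and 54.1 for controls. With a tumor the values were 47.5 and 27.7 FPKM against 37.7 and 45.4 FPKM, where the groups overlap, so the tumor values do not check the labels. Foxp3 and Cd3e were above 0 in all 8 libraries, Foxp3 at 10.2 to 231 CPM and 14.7 to 28.8 FPKM. Before any result on the chain, 1 library has to be named: no-tumor control 1 correlated with the other 3 no-tumor libraries at r = 0.69 to 0.70 across 14860 tested genes, against 0.93 to 0.97 among those 3.

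The respiratory chain sits in the inner mitochondrial membrane. Complexes I and II take electrons from NADH and succinate and pass them to ubiquinone, complex III passes them to cytochrome c, and complex IV passes them to oxygen. Complexes I, III and IV pump protons, and complex V, the ATP synthase, uses the proton gradient to make ATP. Each complex but II also needs subunits encoded by mitochondrial DNA. Tregs are known for a reliance on oxidative metabolism, and loss of complex III in Tregs is known to weaken their suppressive function.

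The nuclear factors NRF1, the ETS-family factor GABP, ESRRA and YY1 are the classical regulators of these genes, so the members' promoters are shown first. RefSeq promoter windows (GRCm38.p6, 250 bases before to 50 after the start) were matched for 69 of the 86 symbols, out of 27025 genes in the table. The 4 motifs were searched on both strands. The NRF1 letters (GCGCA, any base, GCGC) were in the windows of 17 of 69 members (24.6%) and of 5.19% of all genes. The ETS letters CCGGAAG were also in 17 members (24.6%), against 9.93% of all genes. The YY1 letters AANATGGCG were in 10 members (14.5%) against 2.76%, and the ESRRA letters TCAAGGTCA in 2 (2.9%) against 0.466%. At least 1 of the motifs was found in 38 members (55.1%) and in 16.2% of all genes. The share differed between complexes, with 12 of 15 matched genes of complex V and 3 of 13 of complex IV.

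The stretches below run 5′ to 3′ on the gene's strand, end at the start site or 15 bases after the last match, and carry the matches in capitals. Ndufb4 and Sdha are shown because each holds 3 NRF1 matches while their SRC-3KO values in tumor-bearing mice lay on opposite sides of the controls' mean. Sdhd and Cox6a1 are shown because they hold both NRF1 and ETS letters, and Uqcr11 and Atp5l because they hold ETS letters only.
Ndufb4, chr16:37654369-37654574, minus strand: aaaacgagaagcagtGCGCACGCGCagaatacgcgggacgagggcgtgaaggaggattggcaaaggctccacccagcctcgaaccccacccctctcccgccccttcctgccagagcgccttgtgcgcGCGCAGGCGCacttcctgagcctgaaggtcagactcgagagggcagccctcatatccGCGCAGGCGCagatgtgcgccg
Sdha, chr13:74350241-74350353, minus strand: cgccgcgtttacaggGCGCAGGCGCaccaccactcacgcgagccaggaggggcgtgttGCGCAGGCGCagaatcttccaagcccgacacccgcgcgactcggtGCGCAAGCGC
Sdhd, chr9:50603874-50603943, minus strand: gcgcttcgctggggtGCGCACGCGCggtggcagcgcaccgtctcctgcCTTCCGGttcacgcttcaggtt
Uqcr11, chr10:80406866-80406902, minus strand: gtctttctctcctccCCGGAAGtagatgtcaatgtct
Cox6a1, chr5:115348959-115349135, minus strand: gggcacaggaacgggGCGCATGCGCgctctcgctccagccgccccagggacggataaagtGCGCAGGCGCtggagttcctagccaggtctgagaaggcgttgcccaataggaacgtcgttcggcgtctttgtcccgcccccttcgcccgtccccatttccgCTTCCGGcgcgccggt
Atp5l, chr9:44920933-44920969, minus strand: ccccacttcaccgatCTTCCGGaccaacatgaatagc

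A match is a set of letters and not a shown binding site. The median tumor difference (SRC-3KO minus control, log2(FPKM + 1)) was -0.54 in the 17 members with NRF1 letters and -0.50 in the 50 without, and -0.58 in the 17 with ETS letters and -0.49 in the 50 without. The Atp5l window holds a further match after the start site, which is not printed, and the Sdhd window holds ESRRA letters there.

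In tumor-bearing mice, the chain as a whole stood highest in control 1, intermediate in control 2 and lowest in both SRC-3KO libraries. Summed over the 87 members, the level was 18394 FPKM in control 1, 12916 in control 2, and 11361 and 10899 in SRC-3KO. The FPKM sum of all genes fell in the same order, at 514349, 463082, 416186 and 408458. As a share of that sum, members took 3.58% in control 1, 2.79% in control 2, and 2.73% and 2.67% in SRC-3KO. By share, control 2 was thus close to SRC-3KO. The SRC-3KO libraries therefore lay below both controls, but the 2 controls differed more from each other than control 2 did from SRC-3KO. Of the 81 members tested, 78 had a log2 difference below 0, and the groups did not overlap for 65, all of them lower in SRC-3KO, where the background was 24.9% of all 12859 tested genes lower and 27.5% higher. Scaled to the same sum, 40 members were apart lower and 7 higher. That scaling moved the median of all genes to 0.21, and the shares of all genes apart under it are not given. The 24.9% and 27.5% therefore do not serve as background for these counts. No single member passed limma's test at an adjusted p under 0.05, at which 0.0933% of all genes were called lower. At an unadjusted p under 0.05, 12 of 81 members were lower, against 6.07% of all genes. The members' median difference was -0.50, against -0.02 over all genes tested. It was -0.22 without control 1 and -0.76 without control 2. With control 1 as the only control, which limma treats as varying like the other group, 63 members were called lower and 1 higher, and over all genes 1495 were called lower and 1015 higher (2510 of 12460). With control 2 as the only control, 0 were called, against 459 of 12457 genes, and 25 had an unadjusted p under 0.05, against 3123 genes. In bulk samples, fewer cells of a type and less RNA per cell cannot be told apart.

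**Figure D1:**
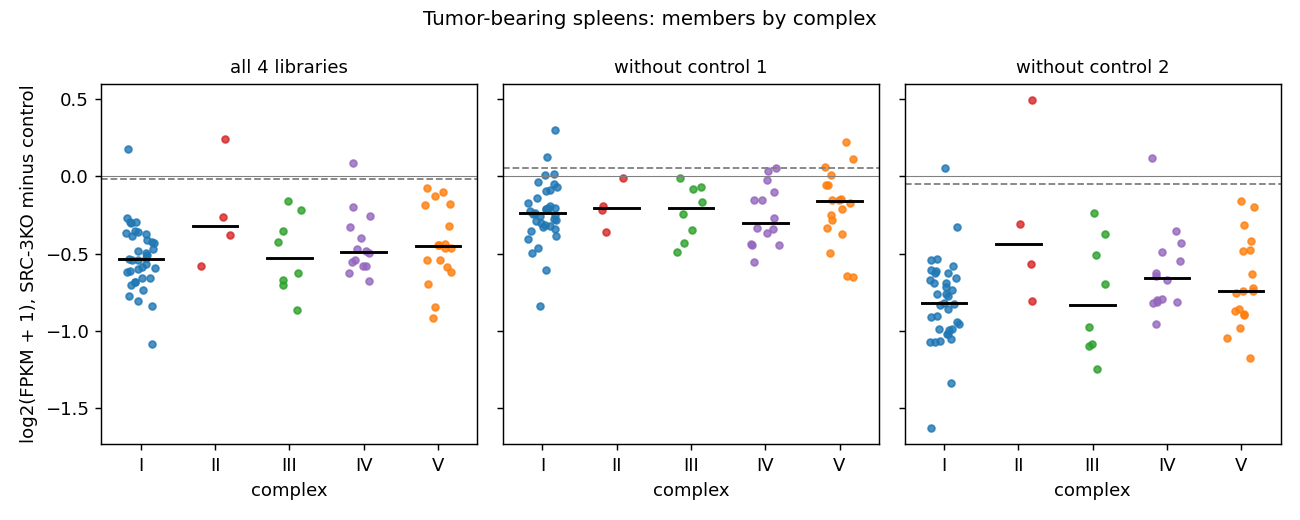
Log2(FPKM + 1) of SRC-3KO minus control in tumor-bearing mice (y axis) for each tested member (points), by complex (x axis), with all 4 libraries, without control 1 and without control 2. Black bars are medians, the dashed line is the median of all genes tested; every complex has a median below the dashed line in each panel.

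The difference was of similar size in complexes I, III, IV and V and smallest in complex II with all 4 libraries. The medians were -0.54 for complex I (37 genes tested), -0.32 for complex II (4), -0.53 for complex III (8), -0.49 for complex IV (14) and -0.45 for complex V (18). Without control 1 they were -0.24, -0.21, -0.21, -0.30 and -0.16, so that complex V had the smallest. The differences between complexes, and between the subunit classes below, were not tested. Scaling the libraries to the same sum in 2 ways moved the median of all genes to 0.21 and 0.17, and members relative to it then stood at -0.47 and -0.45, against -0.48 as deposited. Once a smooth trend with GC and length had been subtracted, the members' median was -0.27. Short transcripts were lower in SRC-3KO throughout: all genes under 700 bases had a median of -0.28 and those of 4000 bases and over 0.26. The members stood lower in every length class, from -0.43 to -0.64, and across the 81 members the difference followed length only weakly (Spearman's rho 0.21, a description).

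In complex I, the accessory subunits, which surround the catalytic core, were lower by more than the core subunits. The 29 accessory genes had a median of -0.57, and the groups did not overlap for 26 of them. Without control 1 their median was -0.26, against -0.09 for core genes of the NADH side and -0.21 for those of the quinone side. Ndufb1-ps (chromosome 12, 101968090 to 101977068, minus strand), an accessory subunit gene named as a pseudogene but listed as protein-coding, stood at 164 and 116 FPKM in the controls against 68.6 and 60.8 FPKM in SRC-3KO. Both controls were above both SRC-3KO libraries. The difference, -1.09 (SE 0.24), had the smallest p of all members and did not pass (limma adjusted p = 0.163). No other Ndufb1 gene is among the members, and whether a copy elsewhere shares its reads was not tested. Ndufc1, a small membrane-arm subunit, stood at 64.3 and 46.4 FPKM in the controls against 30.2 and 30.1 in SRC-3KO. Its groups were apart, with a difference of -0.84 (SE 0.22, limma adjusted p = 0.203). Ndufs5, another accessory subunit, followed the same order, at 127 and 86.1 against 62.7 and 59.0 FPKM (difference -0.77, SE 0.24). Ndufb8, whose protein is often blotted as a marker of assembled complex I, stood at 329 and 242 against 181 and 170 FPKM, a difference of -0.68 (SE 0.24).

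The 7 core subunits of complex I differed among themselves. The 3 genes of the NADH side had a median of -0.35 and the 4 of the quinone side -0.37. Ndufv1, which binds NADH and its flavin, stood at 94.9 and 74.0 FPKM in the controls against 64.9 and 53.9 in SRC-3KO, a difference of -0.50 (SE 0.22). Ndufs1 (chromosome 1, 63143596 to 63176833, minus strand), the largest core subunit and a carrier of iron-sulfur clusters, stood at 16.0 and 13.3 FPKM in the controls against 18.2 and 15.1 in SRC-3KO. Its groups overlap, and its difference of 0.17 (SE 0.21) is the 1 value above 0 among the 37 tested genes of complex I. Per length it was also the lowest of the core subunits, the other 6 lying between 52.9 and 249 FPKM. Ndufv2, which holds a further iron-sulfur cluster, stood at 109.6 and 76.2 FPKM in the controls against 72.4 and 70.4 FPKM in SRC-3KO (difference -0.35, SE 0.24). Ndufs3, Ndufs7 and Ndufs8, which lead to the quinone site, each had both SRC-3KO values below both control values, at 52.9 to 139 against 56.3 to 249 FPKM across the 3 genes. Ndufa4, named for complex I and later assigned to complex IV, was the most abundant gene with the Nduf prefix, at 525 and 293 FPKM in the controls against 325 and 313 in SRC-3KO. There control 1 alone was high.

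Complex II, which is also an enzyme of the citric acid cycle, held the member that went most clearly the other way. Sdha (chromosome 13, 74322254 to 74350280, minus strand), the flavoprotein that oxidizes succinate, stood at 81.7 and 116 FPKM in the controls against 119 and 112 in SRC-3KO. Control 1 was the low library and the other 3 were alike, the reverse of nearly every other member, and the difference was 0.24 (SE 0.24), or -0.01 without control 1. Sdhb (chromosome 4, 140961203 to 140979193, plus strand), its iron-sulfur partner, stood at 280 and 206 FPKM in the controls against 161 and 158 in SRC-3KO, with no overlap (difference -0.58, SE 0.24, limma adjusted p = 0.310). The membrane anchors were lower too: Sdhc at 27.9 and 26.3 against 20.9 and 24.02 FPKM (difference -0.26, SE 0.19) and Sdhd at 165 and 128 against 114 and 109 FPKM (difference -0.38, SE 0.22). Sdhb was thus the most and Sdhc the least abundant gene of this complex per length.

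In complex III, the small accessory subunits were lower by more than the large core proteins with both controls in the fit. The 5 accessory genes had a median of -0.67 and the 2 core genes of -0.29, but -0.25 and -0.22 without control 1. Uqcr10, one of these small subunits, stood at 394 and 234 FPKM in the controls against 182 and 151 in SRC-3KO, a difference of -0.87 (SE 0.31, limma adjusted p = 0.277). Control 1 was far above the other 3 libraries. Uqcr11, the most abundant of the complex, showed the same order, at 411 and 227 against 195 and 188 FPKM (difference -0.67, SE 0.33). Uqcrq, another accessory subunit, stood at 214 and 147 against 127 and 92.9 FPKM (difference -0.70, SE 0.28). The core protein Uqcrc1 stood at 259 and 232 against 181 and 183 FPKM (difference -0.43, SE 0.20), and here the 2 controls were close together and apart from SRC-3KO. Uqcrc2, the other core protein and the least abundant gene of the complex, stood at 73.2 and 65.9 against 61.9 and 62.2 FPKM, a difference of -0.16 (SE 0.18) that turned to 0.08 and 0.05 when libraries were scaled to the same sum. Uqcrfs1, the Rieske iron-sulfur protein, stood at 148 and 120 FPKM in the controls against 108 and 120 in SRC-3KO, with overlapping groups.

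**Figure D2:**
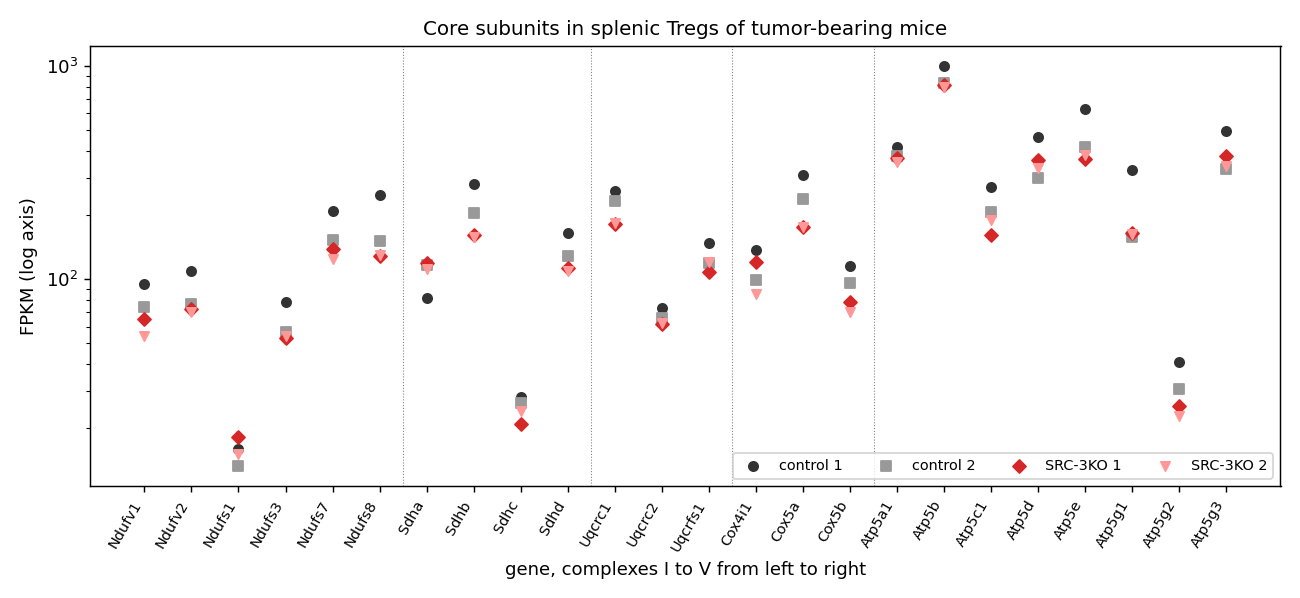
FPKM (log axis) of core subunits of complexes I to III, 3 nuclear-encoded subunits of complex IV and the F1 and subunit c genes of complex V (x axis) in the 4 tumor libraries (points). Control 1 is the highest point for most genes, except Ndufs1 and Sdha, and Sdha has it lowest.

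The catalytic subunits of complex IV are encoded by mitochondrial DNA, and the nuclear-encoded ones surround them. The 11 widely expressed members had a median of -0.50. Cox8a (chromosome 19, 7215153 to 7217616, minus strand), a small membrane subunit, stood at 500 and 424 FPKM in the controls against 297 and 279 in SRC-3KO. The controls were near each other and well above SRC-3KO, with a difference of -0.68 (SE 0.23, limma adjusted p = 0.265). Cox5a, on the matrix side of the complex, stood at 307 and 239 against 176 and 176 FPKM (difference -0.62, SE 0.23), again with no overlap. Cox6b1, which faces cytochrome c and was the most abundant of the complex, stood at 601 and 430 against 340 and 340 FPKM (difference -0.58, SE 0.27). Cox6a1 stood at 534 and 404 against 345 and 324 FPKM (difference -0.47, SE 0.26). Cox4i1, a regulatory subunit, was an exception, at 137 and 99.0 FPKM in the controls against 120 and 84.98 in SRC-3KO. Its groups overlap, with a difference of -0.20 (SE 0.28). Cox5b and the separately listed Cox5b-ps moved alike, at 115 and 96.1 against 78.4 and 70.1 FPKM and at 135 and 117 against 93.0 and 79.7 FPKM, and reads of such copies may be shared.

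In complex V, the membrane part of the synthase was lower by more than the F1 head, where ATP is made. The 5 genes of the membrane part other than subunit c had a median of -0.69, with no overlap for any of the 5. Atp5mpl (chromosome 12, 111961375 to 111966977, minus strand), a small proteolipid, stood at 384 and 267 FPKM in the controls against 175 and 164 in SRC-3KO, a difference of -0.91 (SE 0.26, limma adjusted p = 0.219). Atp5k, subunit e, stood at 197 and 149 against 101.3 and 88.6 FPKM (difference -0.85, SE 0.23, limma adjusted p = 0.208). Atp5l, subunit g, stood at 78.9 and 59.6 against 41.5 and 42.5 FPKM (difference -0.69, SE 0.21). Atp5md, also of this part, stood at 248 and 177 against 145 and 129 FPKM (difference -0.62, SE 0.25). In all 4 the SRC-3KO libraries were alike and below both controls. Without control 1 the differences were -0.65 for Atp5mpl and Atp5k and -0.50 for Atp5l, and shrank to -0.38 for Atp5md and -0.28 for Atp5j2, subunit f, from -0.59.

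The F1 genes had a median of -0.19. Atp5b (chromosome 10, 128083273 to 128090391, plus strand), the catalytic beta subunit and the most abundant member of all per length, stood at 1001 and 837 FPKM in the controls against 811 and 797 in SRC-3KO. Control 1 stood above the other 3, which were close together, and the difference was -0.19 (SE 0.28). Atp5a1, the alpha subunit, stood at 416 and 378 against 370 and 354 FPKM (difference -0.13, SE 0.23). The groups were apart for 4 of the 5 F1 genes, all but Atp5d. Atp5c1, the gamma subunit that turns inside the head, stood at 272 and 208 against 161 and 189 FPKM (difference -0.44, SE 0.24). Atp5e, the epsilon subunit, stood at 628 and 415 against 368 and 381 FPKM (difference -0.45, SE 0.29). Atp5d, the delta subunit, stood at 465 and 298 against 361 and 334 FPKM, so that control 1 alone was high (difference -0.10, SE 0.29). When libraries were scaled to the same sum, the differences of Atp5a1, Atp5b and Atp5d were 0.11, 0.06 and 0.14.

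Subunit c, which forms the rotating ring, is made from 3 genes that encode the same mature protein. With a tumor, Atp5g3 (chromosome 2, 73908447 to 73911326, minus strand) held 57.6% to 66.5% of their summed FPKM, Atp5g1 29.0% to 37.7% and Atp5g2 4.35% to 5.92%. Atp5g1 was high in control 1 alone, at 325 FPKM against 157 to 165 in the other 3. Atp5g3 stood at 497 and 331 FPKM in the controls against 376 and 338 in SRC-3KO, also with overlap (difference -0.18, SE 0.29). Atp5g2 was the 1 subunit c gene whose groups were apart, at 41.0 and 30.7 against 25.4 and 22.8 FPKM (difference -0.54, SE 0.22).

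Several complex IV genes have paralogs known from muscle, lung, testis or sperm, and these were near absent. Of the summed level of its pair or set per length, Cox4i1 held 99.88% or more in all 8 libraries and Cox6a1 99.75% or more, while Cox7b and Cox8a held 100%. Cox6b1 held 99.55% or more, but for no-tumor control 1, where Cox6b2, known from testis, held 8.87%. The Cox7a set was divided, with 81.1% to 90.9% in Cox7a2 and 9.13% to 18.5% in Cox7a2l. Cox7b2, Cox8b, Cox8c and Ndufa4l2 had 0 counts in each no-tumor library, which allows up to 0.106 to 0.119 CPM, and were listed at 0 with a tumor. Cox6a2, the heart and muscle form, had 0 counts without a tumor and was listed at 1.34 and 0.568 FPKM in the tumor controls and at 0 in SRC-3KO. Cox7a1, another muscle form, stood at 1.998 and 2.13 FPKM in the controls against 2.02 and 2.49 in SRC-3KO with a tumor, with no separation. Without a tumor its counts were 51 and 65 for SRC-3KO against 4 and 0 for control, a separation that did not pass (edgeR adjusted p = 0.910). The second Atp5o identifier overlaps the first on chromosome 16. It had 0 counts in all no-tumor libraries and 126 to 212 FPKM in the tumor libraries, so values of Atp5o are uncertain.

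Without a tumor, the members' comparison depended on control 1. The members took 1.71% of the counts in control 1, against 3.60% in control 2 and 3.33% and 3.57% in SRC-3KO. Control 1 had the lowest value of the 4 libraries for 69 of 80 tested members and the highest for 9. The median log2 fold change was 0.80 with all libraries and -0.03 without control 1, against -0.02 and 0.08 over all genes. No gene passed edgeR's test (0% of 14860), and at an unadjusted p under 0.05 there were 0 members and 3.18% of all genes. DESeq2 and limma-voom also called 0 members at an adjusted p under 0.05; over all genes DESeq2 called 87 and limma-voom 0. The groups did not overlap for 29 of the 80 members in the direction of higher SRC-3KO values (background 23.8%) and for 2, Ndufv1 and Atp5g2, in the lower direction (background 16.9%). Without control 1, 0 members were called and 4 of 80 had an unadjusted p under 0.05, against 1 and 3073 of 15919 genes. With control 1 as the only control, 64 were called higher and 5 lower, and over all genes 3770 were called higher and 3664 lower (7434 of 16963).

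**Figure D3:**
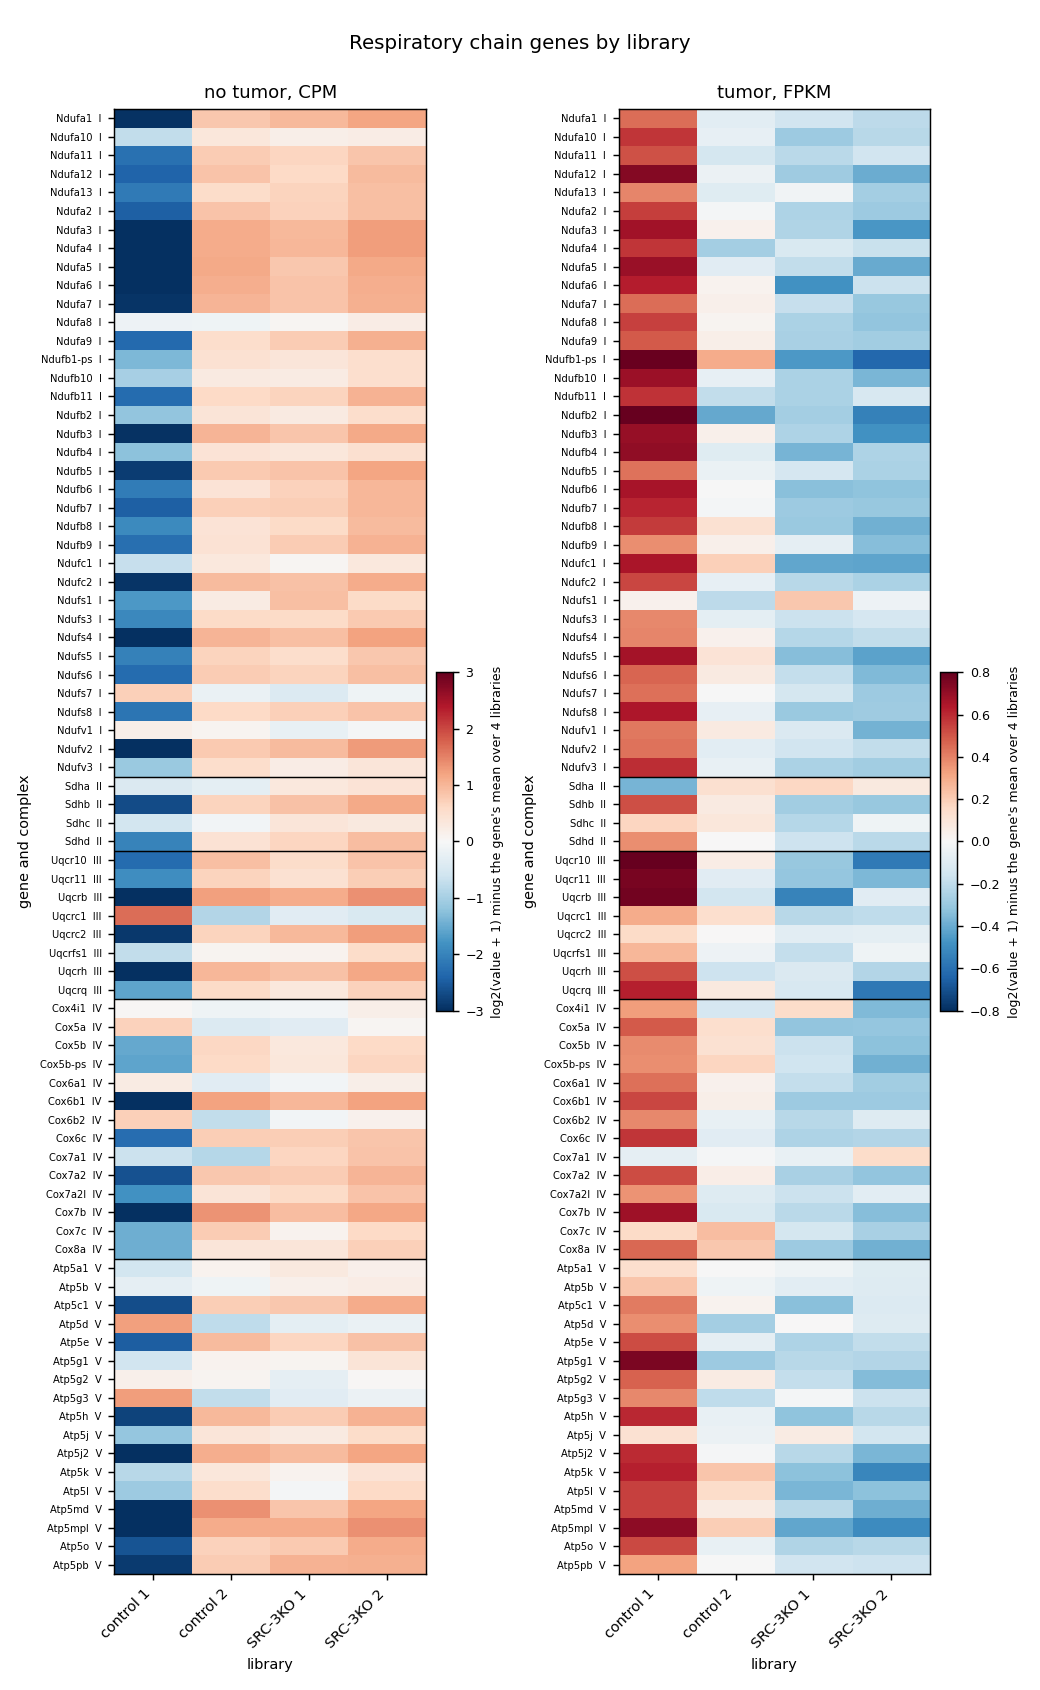
Log2(value + 1) of 79 of the 80 members tested in both tables (rows, with complex), minus its mean over the 4 libraries of its table, for the no-tumor CPM (left) and tumor FPKM (right). Colours are clipped at 3 and 0.8 log2 units; the no-tumor control 1 column is mostly blue with a few red genes, and the tumor control 1 column is mostly red.

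Control 1 did not lower all members alike. Uqcrb, the ubiquinone-binding small subunit of complex III, stood at 12.95 CPM in control 1 and 398 to 480 CPM in the other 3 libraries. Uqcrc1, a core protein of the same complex, stood at 1478 CPM in control 1 and 250 to 362 CPM in the others. Of the complex I genes with the smallest p here, Ndufb9, an accessory subunit, stood at 30.9 CPM in control 1 and 205 to 311 CPM in the others, and Ndufb6 and Ndufa9 showed the same order. Atp5mpl stood at 13.5 against 387 to 465 CPM, and Atp5g3 at 3274 against 822 to 1213 CPM. Within complexes III and V, control 1 thus held genes far above and genes far below the other 3 libraries. Across the 80 members, control 1 correlated with the other libraries at r = 0.54 to 0.59, and those 3 with each other at 0.98 or above (log2(CPM + 1), a description across genes).

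The deviation of control 1 moved with transcript GC content and with transcript length. Over all tested genes, log2(CPM + 1) in control 1 minus the mean of the other 3 had a median of -0.78 for transcripts under 45% GC and 1.68 for those of 55% and over. By length, the median was -1.05 for transcripts under 700 bases and 0.80 for those of 4000 bases and over. Members stood below all genes in each GC class, at -3.92 (14 genes) under 45%, -2.79 (23) at 45% to 50%, -3.09 (27) at 50% to 55% and -0.99 (16) at 55% and over. With the trend with GC and length removed, the members' median log2 fold change was 0.51, and 11 members had groups apart in the higher direction. The share of all genes apart after this removal is not given. Cycling-cell markers were also high in control 1, at 1677 CPM summed over 6 genes against 138 to 306 CPM in the other 3, with none of the 6 at 0. CD8 T or NK cell markers summed to 1336 CPM in control 1, of which Nkg7 gave 1324, against 118 to 555 CPM in the others. Cd8b1 was lower there, at 7.11 against 18.3 to 23.2 CPM. The Treg markers were divided. Tnfrsf18 stood at 179 CPM in control 1 against 1770 to 2462 CPM, and Ctla4, Ikzf2 and Il2ra were also lowest there. Foxp3 stood at 231 CPM in control 1 against 10.2 to 21.1 CPM, and Cd4 and Cd3e were also highest there. The part of any of these in the members' values was not tested.

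**Figure D4:**
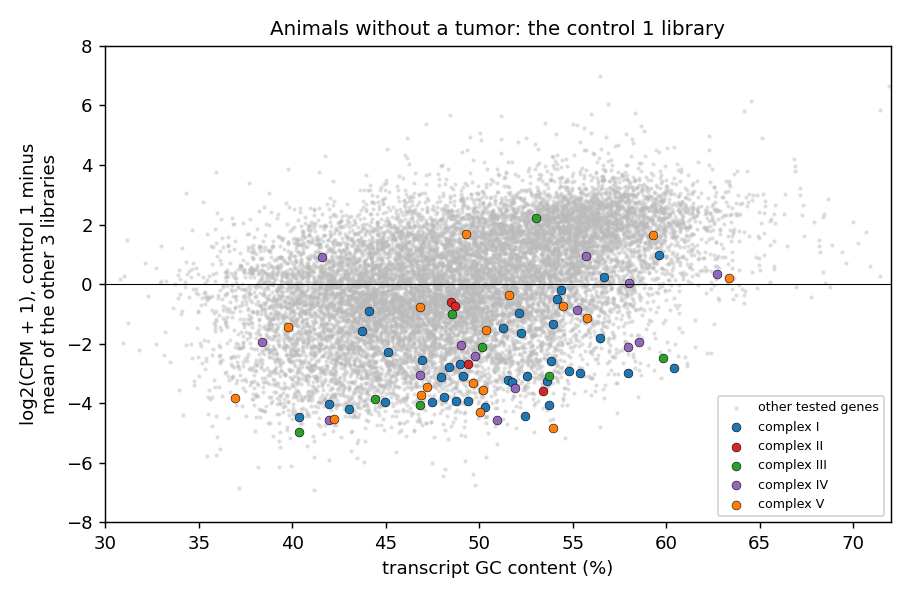
Log2(CPM + 1) in no-tumor control 1 minus the mean of the other 3 no-tumor libraries (y axis) against transcript GC content in percent (x axis), for members (coloured by complex) and other tested genes (grey). Grey points rise with GC content, and most members lie below the grey points of the same GC content.

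Compared with control 2 alone, the SRC-3KO libraries without a tumor held similar levels of the chain, at sums of 33198 and 38993 CPM against 33165 CPM. The median differences from control 2 were -0.08 for complex I, 0.29 for complex II, -0.09 for complex III, 0.03 for complex IV and 0.01 for complex V. These rest on 1 control library. For Sdha, control 2 held 49.4 CPM and the SRC-3KO libraries 75.6 and 80.2 CPM, and for Ndufs1 76.8 against 122 and 97.4 CPM. In control 1 they stood at 44.2 and 19.0 CPM, so both SRC-3KO libraries were above both controls. The log2 fold changes with all libraries were 0.73 (SE 0.72) for Sdha and 1.20 (SE 0.93) for Ndufs1, each with an edgeR adjusted p of 0.910.

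The order of the members within the chain was partly alike in the 2 tables. No library is shared between the no-tumor values without control 1 and the tumor values. Over 79 members tested in both (Cox7a1, at 0 counts in control 2, left out), these differences correlated at r = 0.51 and Spearman's rho 0.51, against r = 0.02 over 11775 genes. With Cox7a1 kept, r was 0.39 and rho 0.53 over 80 members. Over the 79 members, rho was 0.39 without tumor control 1 and 0.51 without tumor control 2. These are descriptions across genes, which share length, GC content and libraries and are not replicates. Sdha (0.55 against no-tumor control 2) and Ndufs1 (0.42) were the only 2 of the 79 above 0 in both. Cox6b2 was the highest without a tumor, at 0.96 from under 5 CPM in SRC-3KO, and stood at -0.33 with one. The accessory subunit Uqcr10 was low in both (-0.30 and -0.87), and Ndufb1-ps was lowest with a tumor and stood at -0.13 without one.

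**Figure D5:**
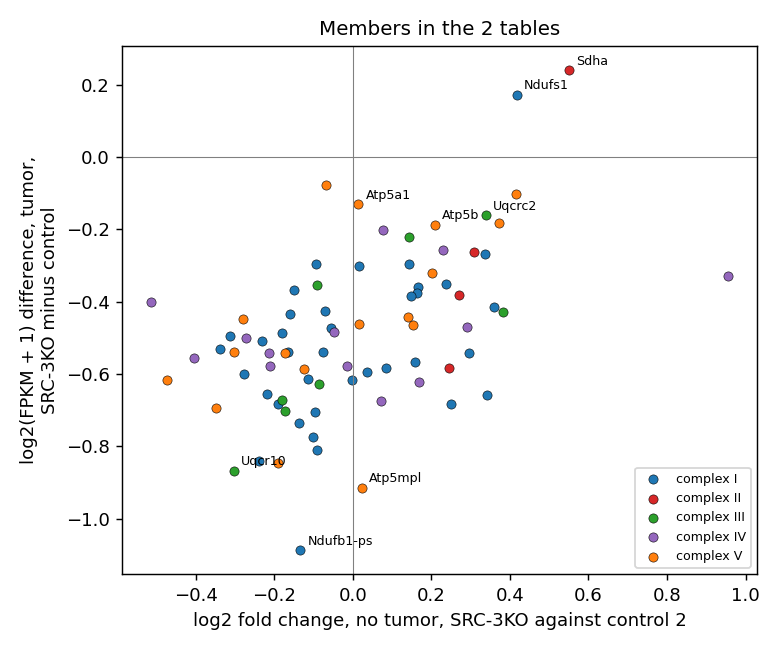
Log2(FPKM + 1) of SRC-3KO minus control with a tumor (y axis) against the log2 fold change of SRC-3KO over control 2 without a tumor (x axis), for 79 members coloured by complex. Nearly all points lie below 0 on the y axis and on both sides of 0 on the x axis, with Sdha and Ndufs1 alone above 0 on both.

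The other genes of the pathway were read from fixed lists. None of their members passed an adjusted p under 0.05 in either table (limma with a tumor, edgeR without). Of 45 tested assembly factors, 33 were below 0 with a tumor, with a median of -0.22, or -0.11 without control 1 and -0.10 with the trend removed. Groups were apart lower for 21 of the 45 and higher for 2, against 24.9% and 27.5% of all genes. The lower ones included Ndufaf2, a complex I chaperone, at 26.3 and 16.0 FPKM in the controls against 9.87 and 8.28 in SRC-3KO. They also included Cox17, the copper carrier of complex IV, at 286 and 220 against 135 and 126 FPKM. Timmdc1, another complex I assembly factor, went the other way, at 2.53 and 3.67 against 16.9 and 9.10 FPKM. Of 9 electron carriers and linked enzymes, 8 were below 0 (median -0.38). Cycs, cytochrome c, stood at 58.3 and 38.2 FPKM in the controls against 30.5 and 32.4 in SRC-3KO. Dhodh, which feeds electrons to ubiquinone from pyrimidine synthesis, stood at 19.4 and 11.2 against 5.22 and 5.53 FPKM. Both had groups apart, as did 5 of the 9 in the lower direction and 0 in the higher.

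The 15 citric acid cycle genes had a median of -0.19, with 11 below 0, and a median of -0.07 without control 1 and also with the length and GC trend removed. Citrate synthase (Cs) stood at 83.9 and 73.3 FPKM in the controls against 81.7 and 84.7 in SRC-3KO, with overlap. Regulators of mitochondrial biogenesis were on the other side, with 10 of 13 above 0 and a median of 0.31, or -0.03 with the length and GC trend removed. Nrf1 stood at 6.88 and 11.4 FPKM in the controls against 23.5 and 18.9 in SRC-3KO (limma adjusted p = 0.188), and Gabpb1 at 20.3 and 18.2 against 27.4 and 30.1 FPKM. In both, the SRC-3KO libraries lay above both controls. Of the 13 regulators, groups were apart higher for 6 and lower for 3, against 27.5% and 24.9% of all genes. Without a tumor, the SRC-3KO libraries held Nrf1 at 21.6 and 19.3 CPM, below the controls at 69.2 and 24.3 CPM, so the groups were apart in the opposite direction. Tfam, which packages and transcribes mitochondrial DNA, did not separate with a tumor, at 12.6 and 7.94 against 10.1 and 10.2 FPKM. The 13 chain genes encoded by mitochondrial DNA are listed at 0 in all 8 libraries, and their levels were not analysed here.

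Ribosomal genes shared the high values of tumor control 1. The 84 cytosolic ribosomal protein genes summed to 25867 FPKM in control 1 and 15998 FPKM in control 2, with SRC-3KO at 15981 and 16037 FPKM. In the same order, the 78 mitochondrial ribosomal protein genes summed to 4854, 3163, 3024 and 2871 FPKM. Without control 1, the median difference was 0.00 for the cytosolic and -0.05 for the mitochondrial ribosomal genes, beside -0.22 for the chain. Whether the chain and the ribosomal genes differ in this was not tested.

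Markers of other cells also differed between the tumor groups. Plasma cell markers summed to 1043 and 1694 FPKM in the controls against 22.5 and 41.5 in SRC-3KO, with all 4 genes lower in SRC-3KO. B cell markers summed to 680 and 683 against 251 and 211 FPKM, with 5 of 6 lower. Cycling-cell markers summed to 42.2 and 38.6 against 14.9 and 14.1 FPKM, with 5 of 6 lower and Mki67 higher. Neutrophil markers summed to 3540 FPKM in control 2 and to 4.18, 1.29 and 0 FPKM in control 1 and SRC-3KO, and monocyte or macrophage markers to 1409 against 7.76 to 10.4 FPKM. CD8 T or NK cell markers summed to 159 and 111 FPKM in the controls against 58.4 and 37.8 FPKM, with 2 of 6 lower and 1 higher. Treg markers were higher in SRC-3KO, at 2205 and 1642 against 2568 and 2528 FPKM, with groups apart for 6 of 7 genes. The part of any of these cells in the members' values was not tested.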

How the data were processed

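Raw read counts per gene were deposited by the authors for the no-tumor libraries and FPKM values for the tumor libraries. Per the submitters' processing notes, the authors used mm10, FastQC, Trim Galore, STAR, featureCounts and edgeR, without versions; per the file headers, the FPKM values come from StringTie. The labels give no annotation release or strand setting. FPKM values of the authors were tested as log2(FPKM + 1) with limma 3.58.1 (intensity trend) for genes at 1 FPKM or more in at least 2 libraries. Counts were tested with edgeR 4.0.16 (R 4.3.3, filterByExpr, TMM, quasi-likelihood). Fits ran on all genes, with Benjamini-Hochberg adjustment and a threshold of 0.05. CPM uses TMM-scaled library sizes. Of 87 members, 80 and 81 passed the low-value filters. Lengths, GC content and positions came from GENCODE vM21 (99.53% of genes matched).

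The members, lists and motifs were chosen with earlier results of these data known. Genes named with values were subunits fixed by role, up to 4 per complex with the smallest unadjusted p in each table, and the most and least abundant per complex; other members are given by counts, and pathway genes, Ncoa3, cell markers and the genes with printed promoters were named beside it, some after their values were seen. The fits were repeated with DESeq2 1.42.0, limma-voom, further scalings and filters, a pseudocount of 0.1, a replicate block, a GC and length trend (splines with 5 degrees of freedom) and leaving out each library. The fits were tested on simulated data, with changes larger than the members' medians with all libraries. The simulated counts also spread less than the no-tumor counts, whose common dispersion (edgeR's measure of spread) was 0.79. The simulation therefore does not show whether changes of the members' size would be found here. Zero counts allow up to 3 counts per library, for counting error only. Values of 1 member that enters the counts and medians are not reported here.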

Additional observations from a re-analysis of the deposited data

Results flagged for a closer look

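For 21 members, both SRC-3KO libraries lay above both controls without a tumor and below both with one. Of all tested genes, 23.8% were apart higher without a tumor and 24.9% were apart lower with one. The share of all genes with both is not given, and the difference between the states was not tested. No-tumor control 1 was the lowest library for 69 of 80 tested members, and tumor control 1 the highest for 77 of 81. The part of these libraries in the opposite order was not tested. The no-tumor log2 fold changes of these members were 0.41 for Atp5a1, 0.39 for Atp5b, 1.12 for Atp5c1, 1.13 for Atp5o, 1.20 for Atp5pb, 0.89 for Cox6c, 1.18 for Ndufa1, 0.28 for Ndufa8, 1.22 for Ndufa9, 1.15 for Ndufb5, 1.22 for Ndufb6, 0.99 for Ndufb7, 1.10 for Ndufb8, 1.27 for Ndufb9, 0.89 for Ndufs3, 1.001 for Ndufs8, 1.25 for Ndufv2, 1.22 for Sdhb, 0.63 for Sdhc, 1.14 for Sdhd and 1.33 for Uqcrc2. With a tumor they ranged from -0.68 (Ndufb8) to -0.13 (Atp5a1). Without no-tumor control 1, 20 of the 21 stood above 0, at 0.01 (Atp5a1) to 0.36 (Ndufb9), and Cox6c stood at -0.05. The 21 were chosen with both SRC-3KO libraries above control 2 as well, so values above 0 follow largely from that choice. Over all tested members, the median without no-tumor control 1 was -0.03.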

How the results depend on the processing

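Leaving out no-tumor or tumor control 1 or control 2 moved most values. Over fits that left out 1 library each, members called lower ranged from 0 to 5 and higher from 0 to 64 without a tumor, and lower from 0 to 63 and higher from 0 to 1 with one. The members' median ranged from -0.0319 to 2.80 without a tumor, complex I from -0.0764 to 2.98 and complex III from -0.0876 to 2.73. Members with groups apart ranged from 2 to 12 lower and 29 to 70 higher without a tumor, and from 1 to 5 higher with one. With 1 library left in a group, any gene's groups are more easily apart, and the shares of all genes are not given here. Without a tumor, log2 fold changes ran from -0.0483 to 3.07 for Cox6c, -2.10 to 0.38 for Uqcrc1, -0.0853 to 5.06 for Uqcrb and -1.54 to 0.37 for Atp5g3. With a tumor, they ran from -0.0095 to 0.49 for Sdha, -0.45 to 0.048 for Cox4i1, -0.42 to 0.22 for Atp5d and -0.48 to 0.11 for Atp5g3.

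With the GC and length trend removed, 11 members had groups apart in the higher direction without a tumor, and Ndufv1 and Atp5g2 stood at 0.0676 and 0.26. With a tumor it gave 4 higher, and 0.0729 for Uqcrc2, 0.017 for Uqcrfs1 and 0.13 for Atp5g3. Scaled to the same sum, 40 members had groups apart lower and 7 higher. Leaving receptor, haemoglobin and ribosomal genes out of that sum gave 41 and 6. Shares of all genes apart are not given for these scalings or for the trend removal. The first and second scaling gave 0.0796 and 0.0515 for Uqcrc2, 0.0398 and 0.0121 for Cox4i1, 0.11 and 0.0848 for Atp5a1, 0.0559 and 0.0281 for Atp5b, 0.14 and 0.11 for Atp5d and 0.0593 and 0.0314 for Atp5g3; Uqcrfs1 stood at 0.0192 under the first. The cause of these changes was not tested.

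Same-numbered tumor libraries did not deviate together (r = 0.0357 across genes), and the replicate block left the members' median at -0.50 with 0 members called (72 genes over all, against 14). The tumor files give no depth, and 2 libraries a group limit every comparison.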
